A study of Mus musculus with 2 samples.

Results

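The 9 Prdm genes Prdm1, Prdm2, Prdm4, Prdm6, Prdm8, Prdm12, Prdm13, Prdm14 and Prdm16 were examined for intervals of Ring1b, the ubiquitin ligase subunit of Polycomb repressive complex 1. They were selected by gene name in the authors' table of genes with a Ring1b interval, with earlier results of these data known. Of the 9, 7 had a row among the 3993 genes of that table, and Prdm1 and Prdm4 had none. Of all protein-coding genes, 16.0% had a row, a share given as background only, since the rows served in the choice. A row means that at least 1 interval lay in the gene or within 10 kb of it, and the largest gap in the table was 9992 bp. The values that decided whether a gene had a row (its intervals and their heights) are given below as a description, without a test.

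Genomic sites of Ring1b came from chromatin immunoprecipitation followed by sequencing (ChIP-seq) of incisor pulp cells of CD1 mice aged 5 days. The mice had received 1 injection of the thymidine analogue EdU at 3.3 µg per g, 24 h before collection, and the pulp cells were sorted for EdU after fixation. There were 2 samples, Ring1b ChIP (n = 1) and Input DNA (n = 1), which share strain, tissue, age and EdU treatment. The tables used here hold values of the ChIP sample only, so ChIP was not compared with input. The sort takes pulp cells of any type that were labelled through DNA replication after the injection. The files hold no expression values against which the labelled tissue could be checked.

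The files name 2 replicates of the ChIP, called run 1 and run 2 here and counted as 1 sample, because the labels describe a single ChIP sample. Run 1 gave 465 intervals and run 2 gave 3938, which the authors merged into 4316 regions. Summit heights are the authors' values, whole numbers whose scaling, like the sequencing depth, is not stated. With 1 sample there is no SD and no p-value, and confidence intervals cover counting error only.

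Prdm genes encode proteins with a PR domain, a relative of the SET domain of histone methyltransferases, and in most cases a row of zinc fingers that bind DNA. Many act as repressors that direct cell fate, in germ cells, neurons, smooth muscle, fat and blood. Polycomb repressive complex 1 holds developmental regulators silent, and its Ring1b subunit attaches ubiquitin to histone H2A.

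The germ cell regulator Prdm14 carried the highest interval of the 7 genes, and the smooth muscle repressor Prdm6 carried the most. Prdm14 reached a height of 20, Prdm6 reached 12 and Prdm8 reached 9. Prdm2, Prdm12 and Prdm16 each reached 6, and Prdm13 reached 5. The median of these 7 values was 6, against 5 over all genes of the table. Heights of 20 or more occurred in 0.476% of the 3993 genes, heights of 12 or more in 2.80%, heights of 9 or more in 7.14%, heights of 6 or more in 27.9% and heights of 5 or more in 50.5%. Thus Prdm14, Prdm6 and Prdm8 lay in the upper tail, Prdm2, Prdm12 and Prdm16 lay above the middle of the distribution, and Prdm13 lay at the middle.

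**Figure D1:**
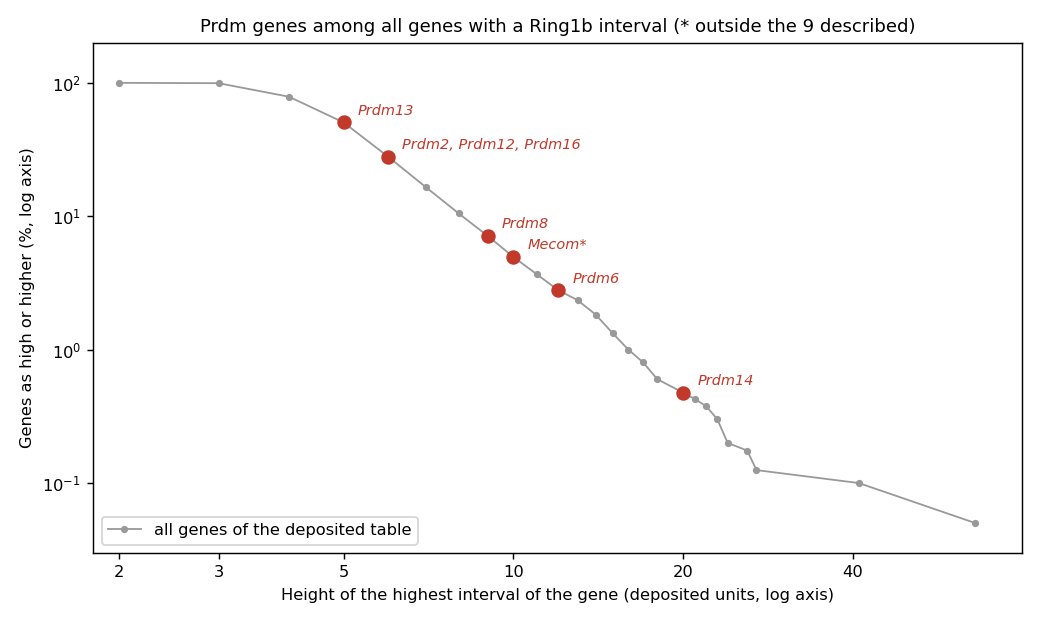
Share of the 3993 genes with a highest interval at least as high (vertical axis, percent, log axis) against the height of the gene's highest interval (horizontal axis, deposited units, log axis). Grey points are all genes of the table and red points the Prdm genes, with Mecom, marked by an asterisk, outside the 9. Prdm14 at 20 lies farthest to the right, followed by Prdm6 at 12.

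Prdm14 is needed for the specification of primordial germ cells and supports naive pluripotency in embryonic stem cells. Its gene, 13.7 kb long on chromosome 1, had 1 interval, at 13125150 to 13127290 (mm10), called in run 2. This interval was 2141 bp wide, covered the transcription start and had its summit 955 bp inside the gene. Only 0.278% of the merged regions were as high, and 3.36% were as wide. The deposited mean height over the gene's regions was 2 in run 1 and 20 in run 2. Since the interval was called in run 2 alone, a higher value there is favoured by the call, and the size of the gap was not tested. The 137 genes called in run 2 only with a height of 10 or more had a median mean height of 1.75 in run 1, close to the 2 of Prdm14. The highest of these run 1 values was 19.

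Prdm1, also called Blimp1, works with Prdm14 in germ cell specification and drives plasma cell differentiation. It had no row in the gene table. An interval of height 7 and 787 bp, called in run 2, lay on chromosome 10 at 44527814 to 44528600 and was assigned to no gene. It covered the 5′ end of the RefSeq gene span of Prdm1, which runs from 44437174 to 44528558 on the minus strand. The start of Prdm1 in the RefSeq promoter table, at 44458748, lay 69.1 kb from this interval, beyond the 10 kb used for assignment. Whether Prdm1 counts as having an interval therefore differed between these gene starts.

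Of the neural members, Prdm8 is a repressor that acts with Bhlhe22 in cortical and retinal neurons. Its 6.58 kb gene on chromosome 5 had 2 intervals, both from run 2. The higher one, of height 9 and 2536 bp, at 98185001 to 98187536, began 4.13 kb inside the gene and ran past its 3′ end at 98187448. The other, of height 3, began 1.44 kb from the deposited start at 98180869. The RefSeq span of Prdm8 begins farther upstream, at 98167203, and on that model the nearest interval lay 15.1 kb from the 5′ end. The highest Ring1b signal at Prdm8 thus lay over the end of the gene and over neither start.

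Prdm12, required for the development of pain-sensing neurons, had 2 intervals on chromosome 2, both from run 2. One of height 6 and 1500 bp, at 31635708 to 31637207, lay 2.83 kb upstream of the deposited start at 31640037. The RefSeq span of Prdm12 begins at 31635026, so on that model the same interval lay inside the gene, 682 bp from its 5′ end. The other, of height 3 and 628 bp, lay 651 bp inside the deposited start. Both Prdm8 and Prdm12 thus held their higher interval away from the deposited start.

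Prdm13 sets the choice between inhibitory and excitatory neurons in the dorsal spinal cord, downstream of Ptf1a. It had 4 intervals on chromosome 4, with heights of 3 to 5, against a median of 4 over the merged regions. Heights were 4, 5 and 3 for the 3 upstream intervals, whose near edges lay 1.28, 2.54 and 3.74 kb from the start. The fourth, of height 3, lay 6.43 kb inside the gene. None of the 4 covered the start of Prdm13, and the last upstream interval, 3741 bp from the gene, was the farthest from its gene of all 23 member intervals.

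Prdm6, a repressor of smooth muscle differentiation genes, had 8 intervals over 14.1 kb on chromosome 18, all from run 2. Only 1.48% of the genes of the table had 8 or more. The largest, of height 12 and 3262 bp at 53463203 to 53466464, covered the start at 53464546. Heights along the gene were 3 upstream, 12 at the start, and then 6, 5, 8, 5, 3 and 5 inside the gene out to 12101 bp. Together the 8 intervals covered 9.29 kb, and 6 of the 8 had a height of 5 or more. Prdm6 therefore carried a broad block that began before its start and ran into the first part of a 111 kb gene, whereas Prdm14 carried a single peak.

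Prdm16 promotes brown fat fate and is also needed for palate and craniofacial development. Its 321 kb gene on chromosome 4 had 4 intervals. The highest, of height 6 and 1295 bp at 154635238 to 154636532, began 341 bp inside the start. It was also assigned to the transcripts 5930403L14Rik, whose start it covered, and Gm13111, which RefSeq lists as Prdm16os, 382 bp away. The other 3 intervals, each of height 4, lay 87.0, 95.7 and 181 kb from the start. The last of these, at 154455252 to 154455777, was the only interval of the 7 genes that run 1 called, and run 2 called none there.

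Prdm2, also called RIZ, is a histone H3 lysine 9 methyltransferase gene with tumour suppressor activity. Both of its intervals lay deep in the gene on chromosome 4. The higher, of height 6 and 690 bp at 143162169 to 143162858, lay 49.9 kb from the start, and the other, of height 3, lay next to it at 143161502 to 143162112. No interval lay within 2.5 kb of the deposited start.

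Prdm4, which binds the neurotrophin receptor p75 and recruits the arginine methyltransferase Prmt5, had no interval. The nearest one, of height 4, lay 504 kb from its RefSeq span. Prdm4 thus stood apart from Prdm1, where an interval touched the gene span without being assigned to it.

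**Figure D2:**
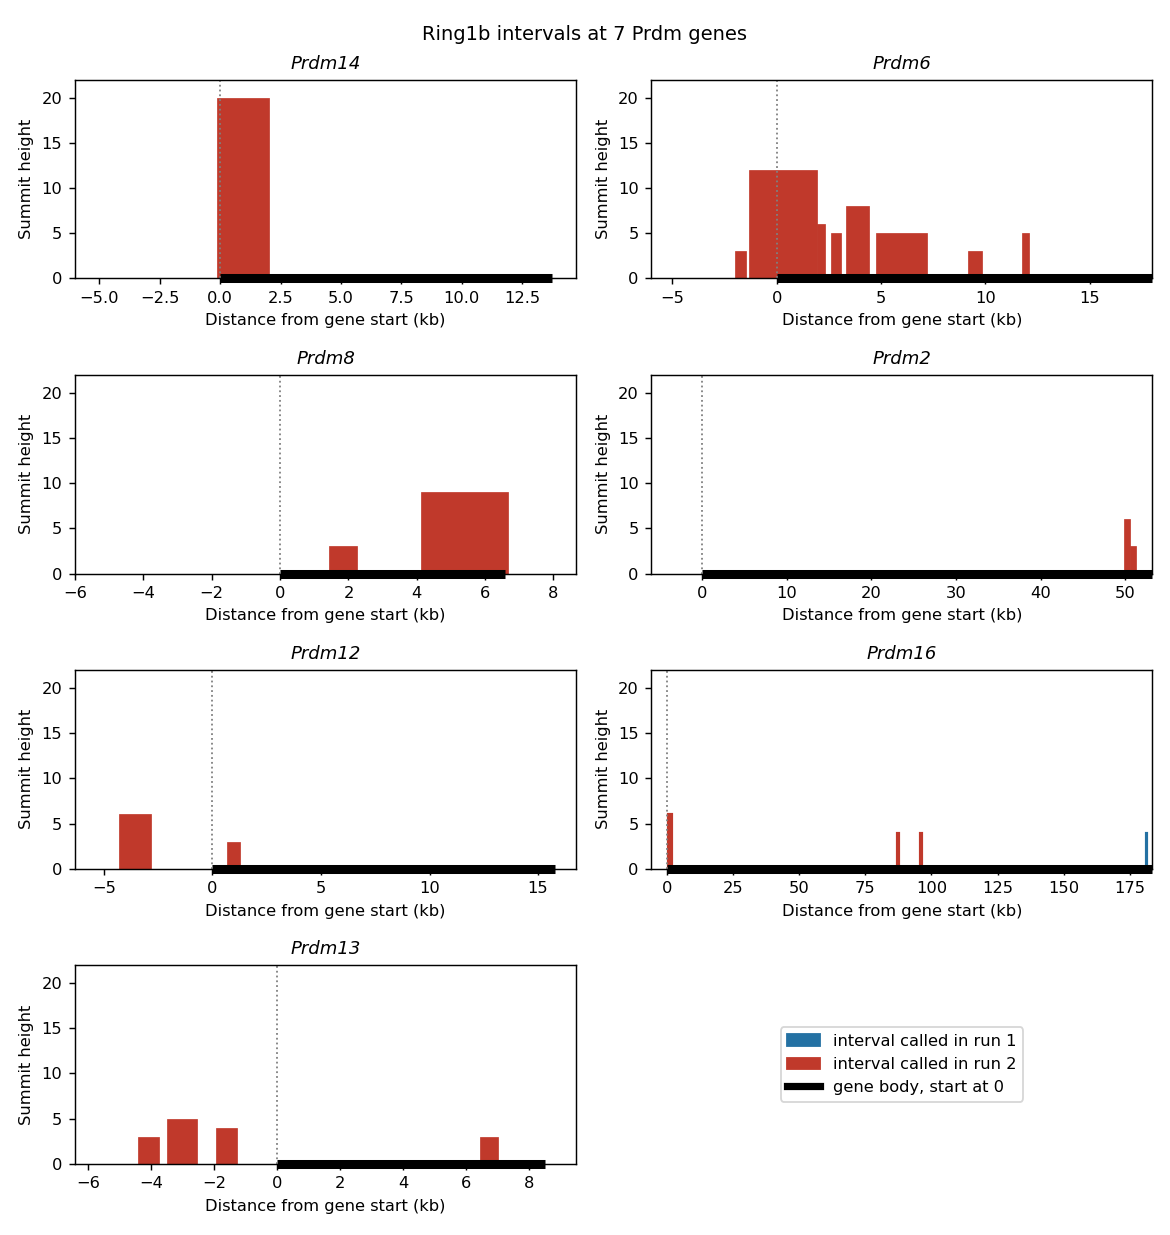
Ring1b intervals at the 7 Prdm genes with a row in the gene table. The horizontal axis gives the distance from the deposited gene start in kb, in the direction of transcription and on a separate scale for each gene, and the vertical axis gives the summit height in deposited units. Each bar is 1 interval, as wide as called except at Prdm16, where outlines are thickened so that the bars can be seen. The black line is the gene body, which runs past the right edge for Prdm6, Prdm2 and Prdm16. Prdm14 shows 1 high bar at the start, Prdm6 shows 8 bars, and the run 1 bar stands 181 kb inside Prdm16.

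The 23 intervals of the 7 genes had heights of 3 to 20, with a median of 5, against 4 over the merged regions. Of them, 12 (52.2%) had a height of 5 or more, against 45.7% of the merged regions. Widths ran from 368 to 3262 bp with a median of 690 bp, against 671 bp. Their median thus lay close to that of the merged regions in both measures. By position, 18 of the 23 (78.3%) lay inside the gene, 5 lay upstream and 0 downstream. Over all pairs of a gene and an interval in the table, 45.1% lay inside the gene, 36.0% upstream and 18.9% downstream. Of the 18, Prdm6 gave 7, Prdm16 gave 4 and Prdm2 gave 2, in genes of 111, 321 and 105 kb. The shorter genes gave the rest, and gene length was not taken into account.

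Of the 23 intervals, 8 (34.8%, exact Clopper-Pearson 95% interval 16.4 to 57.3%) lay within 2.5 kb of the deposited start. Over all 4403 intervals, each set against the nearest start among its assigned genes, this share was 59.7%. These 4403 include intervals assigned to no gene, such as the one at Prdm1, which have no such start and lower the share. Intervals of 1 gene lie beside each other and are not independent, and Prdm6 alone gave 8 of the 23. With a window of 5 kb the shares were 65.2% (42.7 to 83.6%) and 67.5%. The share of the member intervals was thus lower in the narrower window. How it compares in the wider one is not settled, since the 67.5% also counts unassigned intervals. By gene, 6 of the 9 had an interval in the 2.5 kb window, against 10.5% of 21631 protein-coding genes, and Prdm2 was the gene with a row that lacked one. Prdm8 is among the 6 by its deposited start and would not be by its RefSeq 5′ end. Prdm1 goes the other way, since an interval of height 7 covered its RefSeq 5′ end. The intervals that covered a deposited start were those of Prdm14 and Prdm6.

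Run 2 called intervals at all 7 genes and run 1 at Prdm16 alone. By comparison, 15.0% of protein-coding genes had an interval of run 2 and 1.75% had one of run 1. None of the 23 member intervals was called in both runs, which allows a share of up to 13.0% (3 counts of 23), against 1.69% of all merged regions. The deposited mean heights in run 1 were 2 at Prdm14, Prdm6 and Prdm13, 1.5 at Prdm8 and Prdm2, 2.5 at Prdm16 and 0 at Prdm12. Those in run 2 were 20 at Prdm14, 5.88 at Prdm6, 6 at Prdm8, 4.67 at Prdm16, 4.5 at Prdm2 and Prdm12, and 3.75 at Prdm13. At Prdm16, 4.67 is the mean of the heights 4, 4 and 6 of its 3 run 2 intervals. The run 2 value there thus leaves out the region that run 1 called. Which regions the run 1 value averages is not stated, so the 2 runs need not average the same ones. Since 22 of the 23 intervals were called in run 2, higher values in run 2 are favoured by how the regions were found. The size of the gap was not tested, and nothing is read from it. Across the 3559 genes called in run 2 only, the median of these mean heights was 0 in run 1 and 4.17 in run 2.

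**Figure D3:**
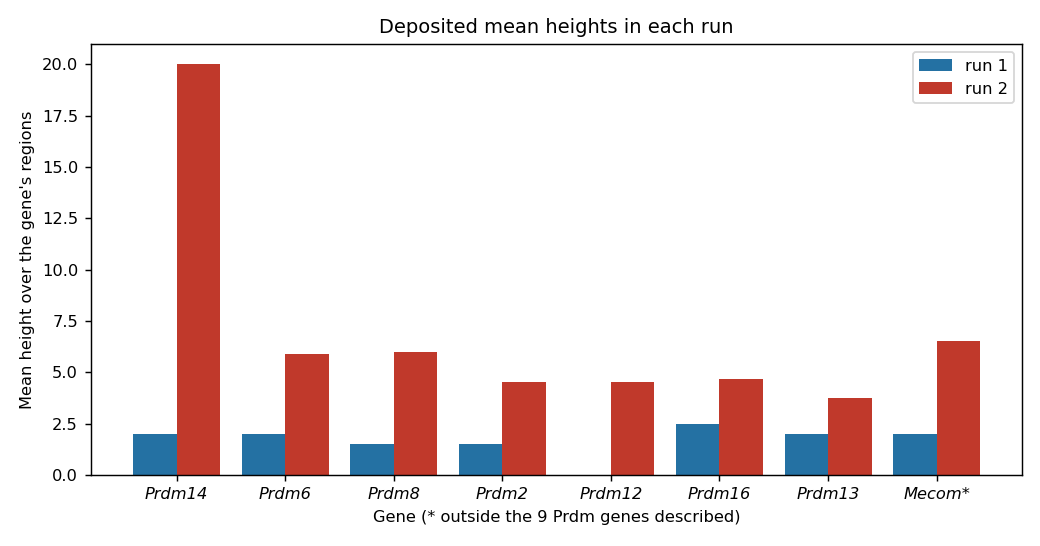
Deposited mean height of each gene (vertical axis, deposited units) in run 1 (blue) and run 2 (red), for the 7 Prdm genes with a row and for Mecom, marked by an asterisk. At Prdm16 the 2 runs need not average the same regions. Run 1 values lie between 0 and 2.5, and run 2 values between 3.75 and 20.

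Counted over the family, 8 of 15 mouse PR domain genes described here (53.3%, exact Clopper-Pearson 95% interval 26.6 to 78.7%) had a row, against 16.0% of protein-coding genes. These add Mecom, Prdm9, Prdm10, Prdm11, Prdm15 and Zfp408 to the 9. Because the genes were chosen with these results known, the counts describe the family and test nothing. Within 2.5 kb of the start the family count was 7 of 15 (against 10.5%), and by the interval midpoint it was also 7 (against 10.4%). Within 1 kb it was 5 (against 9.83%) and within 5 kb it was 7 (against 11.3%), so the family counts stood above the share of all genes at each of these windows. Genes named Zfp and a number, most of which encode zinc finger proteins without a PR domain, had a row in 11.7% of 367 cases. At heights of 5 or more, 8 of the 15 had an interval, against 7.99% of protein-coding genes. At heights of 6 or more, 7 of the 15 had one, against 4.30%.

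Mecom, also known as Prdm3 and Evi1 and the closest paralogue of Prdm16, is required in blood stem cells. It had 4 intervals on chromosome 3, with heights of 3, 10, 4 and 9. The interval of height 10, 4418 bp wide at 30505828 to 30510245, covered its start, and the interval of height 9 lay 3.83 kb upstream. A height of 10 or more occurred in 4.96% of the genes of the table.

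Prdm10 had no row, yet an interval of height 4 on chromosome 9, at 31280469 to 31281149, covered a start of the gene in the RefSeq promoter table. The authors' table assigned it to Gm10910 and Gm7244. A second, of height 5 at 31289704 to 31290503, lay inside the RefSeq span and was assigned to Gm10910. Prdm9, which places meiotic recombination, and Prdm11, Prdm15 and Zfp408 had no interval within 10 kb of the RefSeq span. The nearest lay 266 kb from Prdm9, 207 kb from Prdm11, 1660 kb from Prdm15 and 60.2 kb from Zfp408. With RefSeq spans in place of the deposited gene models, Prdm1 and Prdm10 joined the others, and 10 of 15 family genes had an interval, against 16.8% of protein-coding genes.

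Promoter sequences were compared next, because they were not used to choose the genes. RefSeq windows of 300 bases (GRCm38.p6, the build named mm10), with 250 bases before the start and 50 from it on, were at hand for 6 of the 9 genes: Prdm1, Prdm4, Prdm8, Prdm12, Prdm13 and Prdm16. Not in that table were Prdm2, Prdm6 and Prdm14. The 2 windows below have the most and the fewest CpG dinucleotides among the 6 genes with a window. They are shown for that contrast, with each CpG in capitals. Prdm4 lies at chr10:85916680-85916979 and Prdm13 at chr4:21685914-21686213, both on the minus strand.

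Prdm4: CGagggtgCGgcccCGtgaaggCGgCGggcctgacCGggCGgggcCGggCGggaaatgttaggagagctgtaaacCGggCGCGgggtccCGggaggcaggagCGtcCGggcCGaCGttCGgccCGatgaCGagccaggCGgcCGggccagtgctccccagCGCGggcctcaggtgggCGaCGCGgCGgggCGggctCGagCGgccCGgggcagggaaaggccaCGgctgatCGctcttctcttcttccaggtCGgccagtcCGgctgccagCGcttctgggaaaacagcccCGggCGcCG
Prdm13: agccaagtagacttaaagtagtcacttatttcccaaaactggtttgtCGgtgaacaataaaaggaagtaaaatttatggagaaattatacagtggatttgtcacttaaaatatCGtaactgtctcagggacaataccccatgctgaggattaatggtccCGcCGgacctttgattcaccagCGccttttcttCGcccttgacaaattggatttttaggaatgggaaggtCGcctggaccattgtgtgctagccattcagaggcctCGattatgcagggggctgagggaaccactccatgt

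The Prdm4 window, at the gene without an interval, held 40 CpG, a count reached by 3.94% of all windows. The Prdm13 window, at a gene with 4 intervals, held 8, a count reached by 48.9%. Between them lay Prdm16 with 24, Prdm1 with 20, Prdm12 with 17 and Prdm8 with 12, while a second Prdm4 window, which overlaps the first, held 32. Among the 9 genes, the CpG counts of the windows with a row (8 to 24) thus lay below those of Prdm4, but Prdm1, also without a row, lay among them. Over all promoter windows the median was 23 CpG for genes with a row and 6 for other genes. The 4 windows of Prdm genes with a row had a median of 14.5. None of the windows at hand for these 6 genes overlapped an interval, while Prdm6 and Prdm14, which have no window here, carried an interval over their RefSeq 5′ ends. The nearest interval lay 292 bp from the Prdm16 window, 602 bp from that of Prdm12, 1029 bp from that of Prdm13 and 1395 bp from that of Prdm8.

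**Figure D4:**
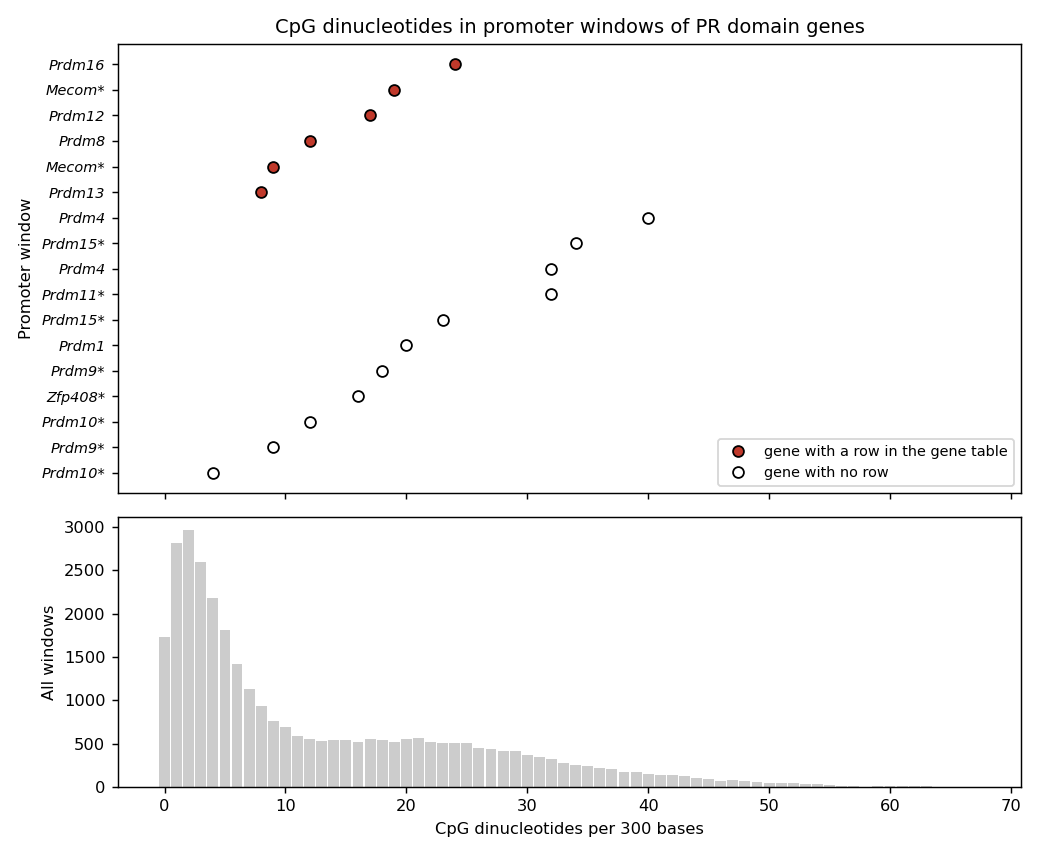
CpG dinucleotides per 300 bases (horizontal axis). The upper panel shows each promoter window of PR domain genes, filled red where the gene has a row in the gene table and open where it has none, with genes outside the 9 marked by an asterisk. The lower panel shows the number of windows with each count over all genes. The windows of genes with a row run from 8 to 24 CpG, and the Prdm4 windows lie at 32 and 40.

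The paralogues Mecom and Prdm16, each with an interval near its start, shared a run of at least 24 bases just after their starts. In Mecom the run reached the last base of the window, so its full length is not known here. Their windows, both on the minus strand, are shown with that run in capitals. Mecom lies at chr3:30509710-30510009 and Prdm16 at chr4:154636824-154637123.

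Mecom: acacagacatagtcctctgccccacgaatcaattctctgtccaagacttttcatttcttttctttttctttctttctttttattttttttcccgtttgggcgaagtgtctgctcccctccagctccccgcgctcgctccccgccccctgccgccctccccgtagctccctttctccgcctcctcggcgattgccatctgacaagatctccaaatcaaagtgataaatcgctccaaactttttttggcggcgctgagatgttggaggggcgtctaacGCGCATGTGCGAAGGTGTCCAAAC
Prdm16: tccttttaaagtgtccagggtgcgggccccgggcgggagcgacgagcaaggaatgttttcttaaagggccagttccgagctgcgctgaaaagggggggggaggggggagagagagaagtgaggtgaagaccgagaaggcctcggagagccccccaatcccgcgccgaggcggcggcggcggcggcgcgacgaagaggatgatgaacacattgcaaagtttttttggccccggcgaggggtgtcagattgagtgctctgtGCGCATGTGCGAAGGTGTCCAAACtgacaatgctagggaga

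With the start counted as 0, the run spanned bases 26 to 49 in Mecom and 9 to 32 in Prdm16. It occurred in 2 of 32619 windows on either strand, those of these genes. Across 131 pairs of family windows the next longest shared run was 12 bases. The Mecom window lay wholly inside its interval of height 10, whereas the Prdm16 window lay 292 bp outside its interval of height 6. The shared run is a description of the sequence and was not tested for a link with Ring1b.

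Matches to 5 short motifs were counted in the 7 windows of the 9 genes, on both strands and with overlaps allowed. Of the 7, 2 are the overlapping Prdm4 windows. CGCG, which itself holds CpG, occurred in 5 of the 7 (71.4%, against 38.3% of all windows and 71.6% of windows of genes with a row). GGGCGG, the GC box, occurred in 4, both Prdm4 windows among them (57.1%, against 35.9% and 64.4%), and GAGAG in 5 (71.4%, against 62.2% and 63.4%). Beside genes with a row, the CGCG share was thus nearly equal and the GGGCGG share lower. TATAAA and CACGTG occurred in 0 of the 7, against 13.7% and 7.20% of all windows. Of the GAGAG matches, 8 overlapped in the Prdm8 window, which ends in a CT repeat.

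Genes that act beside Prdm proteins were described from 3 lists. Of 18 neural specification factors, 15 (83.3%, 58.6 to 96.4%) had a row, against 16.0% of protein-coding genes. The median height of these 15 was 8, against 4 over the protein-coding genes with a row. Tlx3 reached 18, Lbx1 and Isl1 reached 15 and Pou4f1 reached 11, while Ptf1a had none. Bhlhe22, the partner of Prdm8, had 1 interval of height 4 and was named after its value was seen. Ptf1a, which acts upstream of Prdm13, was thus without an interval, although Prdm13 had 4.

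Of 16 germ cell and pluripotency genes, 4 had a row (25.0%, exact interval 7.27 to 52.4%, against 16.0% of protein-coding genes), a share near the background. Their median height was 5, against 4 over the protein-coding genes with a row. Sox2, a pluripotency and neural progenitor factor, reached 13 with 10 intervals. Tfap2c, which acts with Prdm1 and Prdm14 in primordial germ cells, and Pou5f1, which encodes Oct4, reached 5, and Klf5 reached 4. Dppa3, Nanos3 and Nanog had none. The height of 20 at Prdm14 was therefore above that of every gene on this list.

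Of 19 repressor co-factors and histone modifiers, 9 (47.4%, 24.4 to 71.1%) had a row, against 16.0% of protein-coding genes. The median height of these 9 was 5, against 4 over the protein-coding genes with a row. Ctbp2, a co-repressor bound by Prdm16 and Evi1, and Tle1, a Groucho co-repressor, reached 7. Tle3 and Cbfa2t2, whose product binds Prdm14, reached 6. The deacetylase genes Hdac1 and Hdac3 and the demethylase gene Kdm1a had none.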

How the data were processed

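Ring1b ChIP-seq data of 1 ChIP sample were used; the Input DNA sample has no values in the tables used here. The aligner BWA, the interval caller SICER and the build mm10 are named, without versions or settings, per the submitters' processing notes. Per the file headers, the authors deposited summit and interval tracks for 2 replicates and a track of merged regions. The deposited gene table gives signal values: the height of each gene's highest interval, equal to the highest summit in the tracks for 3993 of 3993 genes, and the mean height in each replicate. The deposited summit tracks give a score per summit, the same height. A list of track addresses was not used.

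Intervals, gene starts and strands were taken from these tables, with interval starts written 1-based. Distances run from the interval edge nearest to the deposited start. Protein-coding genes (21631 on chromosomes 1 to 19 and X), gene spans and promoter windows are from RefSeq, GRCm38.p6. Of 3993 gene identifiers, 3867 were found there. Python 3.11.15, numpy 2.4.6, pandas 2.3.3, scipy 1.17.1 and matplotlib 3.10.9 were used. Intervals beside shares are exact Clopper-Pearson 95% intervals. The distance function was tested on simulated data.

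The members and lists were chosen with earlier results of these data known. Named genes were the 9 members, the rest of the family, genes sharing a member's interval and, per list, up to 4 genes with an interval by height and the first 3 without. Some genes of these lists are not reported here. Alternatives used other windows, stricter heights and each run alone; RefSeq gene spans were added after seeing the data.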

Additional observations from a re-analysis of the deposited data

How the results depend on the processing

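No paired analysis was possible because each group holds a single sample, and for the same reason no sample could be left out. With run 1 only, intervals remained at 1 of 15 family genes (Prdm16), 1 of 19 co-factor genes, 1 of 16 germ cell genes and 3 of 18 neural genes. Of all protein-coding genes, 1.75% had an interval of run 1. At heights of 5 or more, 12 of the 23 member intervals remained, against 45.7% of merged regions. Of the 19 co-factor genes, 5 (26.3%) remained, against 7.99% of protein-coding genes. At heights of 6 or more, 8 of the 23 member intervals remained, against 24.6% of merged regions. So did 4 of 19 co-factor genes (21.1%) and 1 of 16 germ cell genes (6.25%), against 4.30% of protein-coding genes. The germ cell share was near that background. The share of member intervals at a start was 65.2% in a 5 kb window, against 67.5% of all intervals, which include those assigned to no gene. The cause of these changes was not tested, apart from the smaller number of intervals that stricter heights and run 1 leave by construction. The family count was 5 within 1 kb of the start, 7 or 8 under the other planned windows, heights and run 2, and 10 with RefSeq gene spans, an alternative chosen after seeing the data. Of 21 alternatives for single members' heights, 11 stayed within 1.5 times and 10 moved. The mean height in run 1 moved at every member with a row, for example to 2 in place of 20 at Prdm14. Nearly all of these intervals were called in run 2, which favours run 2 values. The mean height in run 2 moved at Prdm6, to 5.88 in place of 12. The nearest interval to the start had a height of 3 at Prdm8 and at Prdm12, in place of 9 and 6. Heights are small whole numbers of unknown scaling, so neighbouring values may not differ beyond their error, which limits any order among the genes at 5 to 6.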
